A study of Mus musculus with 8 samples.

Results

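The transcription factors that set regional identity along the gut were followed by name in bulk RNA-seq of mouse small intestine. The 10 genes are Cdx1, Cdx2, Hnf4a, Hnf4g, Gata4, Gata6, Pdx1, Onecut2, Klf5 and Isx. They form a list of symbols whose rule uses no measured value, but it was chosen with earlier results of these data known. All 10 were found among the 11554 genes listed for crypts and all 10 among the 12701 genes listed for villi.

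Crypts and villi of C57BL/6 mice were collected 1 month after tamoxifen from Ctrl mice and from Gli1-PtgscKO mice, with 2 libraries deposited for each tissue and genotype. In Gli1-PtgscKO mice an inducible Cre driven by Gli1 deletes Ptgs1 and Ptgs2, the genes of the cyclooxygenases COX1 and COX2, in mesenchymal cells that express Gli1. The 10 factors act in epithelial cells, which are not the cells this Cre is used to target. According to the labels the Ctrl mice carried Gli1-CreERT2 and a Rosa26-tdTomato reporter, so they shared the driver and the tamoxifen, whereas the study's own description of the Ctrl mice for this experiment gives the floxed genes without Cre. The question put to these genes is whether the regional program of the epithelium differed after the mesenchymal deletion.

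The values are gene counts divided by a size factor for each library, called normalized counts here. The crypt libraries held 16853017 to 21121714 reads on listed genes and the villus libraries 13477600 to 15751024. The Ctrl villus columns were identical for all 12701 genes and were counted as 1 library, which leaves 7 independent libraries of 8 and no replicate check in villi. Ptgs1 was at 365.5 and 163.8 normalized counts in Ctrl crypts and 178.4 and 198.9 in Gli1-PtgscKO crypts, so the groups overlapped, and Ptgs2 and Gli1 were not listed. The crypt preparations also held other cells, with a summed level of 7 listed mesenchymal markers of 15904 and 8701 in Ctrl and 10011 and 13995 in Gli1-PtgscKO. The sources used here say that 2 biological replicates were taken but do not tie numbers to animals, so p-values measure the spread between these libraries. In bulk tissue, fewer cells of a type and less RNA per cell cannot be told apart.

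CDX1 and CDX2 are homeobox proteins that establish and keep the intestinal program, and loss of CDX2 is known to let gastric genes appear in intestinal epithelium. HNF4A and HNF4G are paired nuclear receptors that drive enterocyte genes, GATA4 and GATA6 are zinc finger factors, of which GATA4 keeps jejunum distinct from ileum, and PDX1 and ONECUT2 mark the duodenum, with PDX1 also present in the distal stomach. KLF5 supports proliferating crypt cells, and ISX is an intestine-specific homeobox repressor of genes for vitamin A and lipid uptake.

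Cdx2 and Pdx1 are neighbours on chromosome 5 and Hnf4a is read from separate start sites, so the sequence before their annotated starts is shown for orientation. Cdx2 lies at chr5:147300805-147307270 on the minus strand and Pdx1 at chr5:147269959-147275848 on the plus strand (GRCm38), with 24956 bases between their facing 3′ ends. Hnf4a lies at chr2:163506808-163572910 (plus strand), Hnf4g at chr3:3508030-3658052 (plus), Gata4 at chr14:63198922-63271692 (minus), Klf5 at chr14:99298691-99315036 (plus) and Isx at chr8:74873173-74893506 (plus). Each run below holds the 250 bases before a RefSeq start (GRCm38.p6), read 5′ to 3′ on the gene's own strand. The GENCODE M21 gene starts a little earlier and so inside the window for Cdx2, Pdx1 and the upstream Hnf4a start. Capitals mark matches, on either strand, to 1 of 6 short motifs. The motif searched for CDX proteins was TTTATG and the motif searched for HNF4 receptors was AAAGTCC. For the GATA factors the letters searched were GATAA, and for the homeobox protein PDX1 the letters searched were TAATTA. The ONECUT family was searched with the letters ATCAAT, and the KLF family was searched with the letters GGGNGGG, where N is any base.
Pdx1, chr5:147269847-147270096: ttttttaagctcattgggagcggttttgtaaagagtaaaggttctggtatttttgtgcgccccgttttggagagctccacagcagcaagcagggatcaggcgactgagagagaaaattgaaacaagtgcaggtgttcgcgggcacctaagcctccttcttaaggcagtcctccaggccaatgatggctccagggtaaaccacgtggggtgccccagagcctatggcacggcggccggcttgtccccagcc
Cdx2, chr5:147307250-147307499: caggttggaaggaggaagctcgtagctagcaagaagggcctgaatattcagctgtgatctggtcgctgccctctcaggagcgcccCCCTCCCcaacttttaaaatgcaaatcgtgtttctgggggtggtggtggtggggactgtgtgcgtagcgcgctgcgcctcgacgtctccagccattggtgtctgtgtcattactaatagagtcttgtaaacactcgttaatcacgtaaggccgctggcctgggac
Hnf4a upstream start, chr2:163506607-163506856: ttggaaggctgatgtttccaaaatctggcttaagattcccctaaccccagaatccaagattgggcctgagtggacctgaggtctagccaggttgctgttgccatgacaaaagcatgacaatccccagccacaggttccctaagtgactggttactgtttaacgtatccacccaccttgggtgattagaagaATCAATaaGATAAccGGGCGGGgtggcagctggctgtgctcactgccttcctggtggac
Hnf4a downstream start, chr2:163546905-163547154: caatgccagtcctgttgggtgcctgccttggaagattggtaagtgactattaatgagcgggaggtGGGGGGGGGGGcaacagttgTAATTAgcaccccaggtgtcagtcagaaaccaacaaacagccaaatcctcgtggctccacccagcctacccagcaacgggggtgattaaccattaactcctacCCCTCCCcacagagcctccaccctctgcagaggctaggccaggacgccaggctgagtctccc
No match to any of the 6 motifs was found in the Pdx1 window, and 1 KLF match stood in that of Cdx2. The upstream Hnf4a window held the ONECUT, the GATA and a KLF match close together, while the downstream one held the PDX1 motif and KLF matches that overlap in a run of G. For scale, over all 32851 RefSeq windows that also take in the 50 bases after the start, 7.54% held the ONECUT motif, 25.4% that of GATA, 5.29% that of PDX1 and 48.1% that of KLF, and a match is a description of letters, not a site. The CDX motif stood in 11.9% and the HNF4 motif in 4.21% of those windows and in none of the 5 matched for these genes. Read counts are per gene and do not separate the Hnf4a starts.

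In crypts, none of the 10 factors passed the test between genotypes. Genes were compared by limma-trend on log2(normalized count + 1), and a gene was called at an unadjusted p under 0.01 with an absolute log2 fold change over 1, the threshold of the study. At that threshold 0 of 10 factors were called, where 0.182% of all 11554 genes were (20 higher in Gli1-PtgscKO and 1 lower). No gene had a Benjamini-Hochberg adjusted p under 0.05 by limma-trend (0.0% of genes), against 11 by DESeq2 and 0 by edgeR on recovered reads. At an unadjusted p under 0.05, which 73 genes reached (0.632%), again 0 of 10 factors stood. Each of the 10 had a limma adjusted p of 1.00. The median log2 fold change of the factors was -0.04 beside -0.01 over all genes, and their median absolute log2 fold change was 0.09 beside 0.20. With 2 libraries a group, the fold change that would have reached the p threshold ran from 0.85 on the log2 scale for Isx to 1.74 for Hnf4g, so smaller differences were not detectable at this replication.

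**Figure D1:**
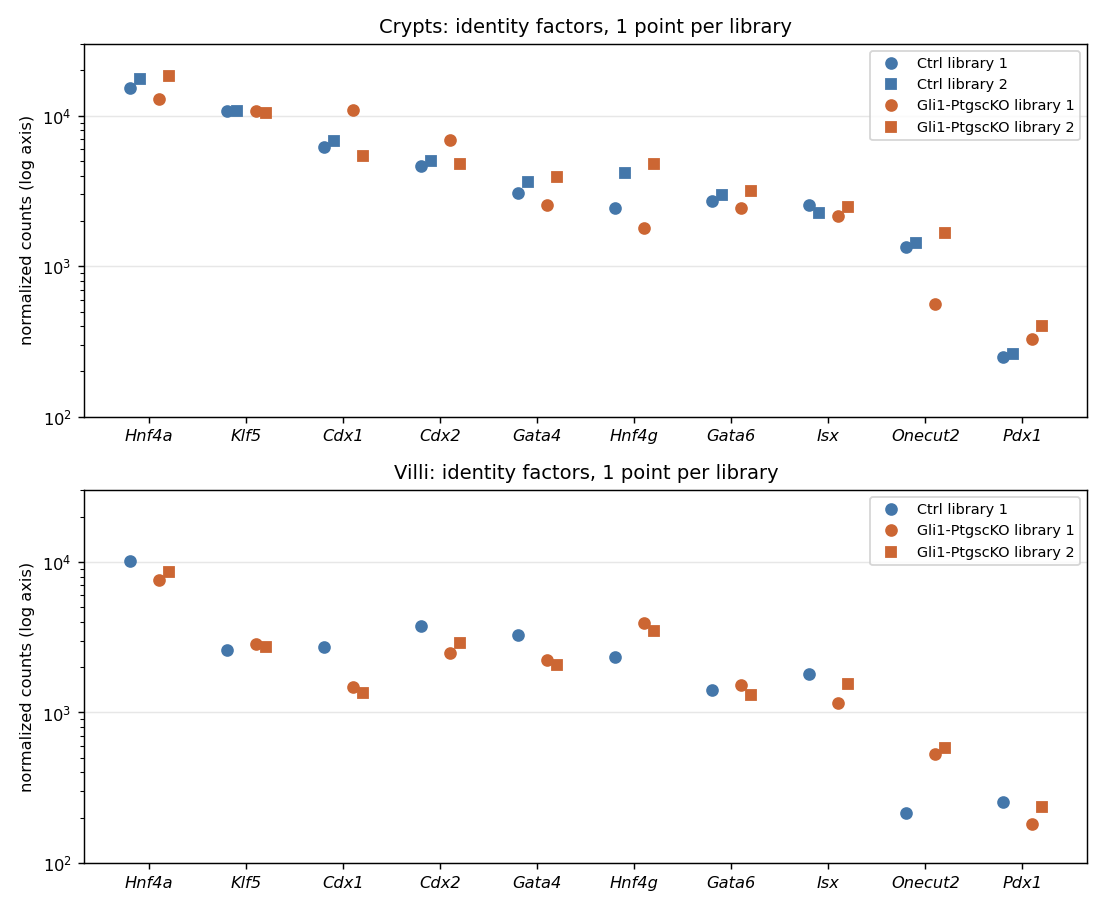
Normalized counts of the 10 identity factors (log axis) in crypts (upper) and villi (lower), 1 point per library, blue for Ctrl and orange for Gli1-PtgscKO, circles for library 1 and squares for library 2. In crypts the orange points lie on both sides of the blue ones for most genes, and Pdx1 alone has both above. In villi, with 1 Ctrl library, Onecut2 and Hnf4g lie above it and Cdx1 below it.

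The CDX genes were abundant in every crypt library. Cdx1 was at 6247 and 6789 normalized counts in Ctrl crypts and at 10885 and 5419 in Gli1-PtgscKO crypts. The Gli1-PtgscKO libraries thus lay on opposite sides of both Ctrl libraries, with a log2 fold change of 0.24 (SE 0.37, 95% interval -0.64 to 1.12). Cdx2, the master factor of intestinal identity, was at 4670 and 4976 in Ctrl and 6880 and 4755 in Gli1-PtgscKO. Its groups overlapped, and the log2 fold change was 0.25 (SE 0.28, 95% interval -0.42 to 0.91). The lower bound for Cdx2 corresponds to 0.748 of the Ctrl level, so a fall below that share lies outside its interval.

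The HNF4 genes gave no separation either. Hnf4a, the most abundant of the 10 by normalized count, was at 15222.5 and 17512 in Ctrl crypts and 12973 and 18450 in Gli1-PtgscKO crypts. The Ctrl values sat between the others, with a log2 fold change of -0.08 (SE 0.31, 95% interval -0.83 to 0.67). Hnf4g, its paralog, was at 2435 and 4146 in Ctrl and 1809 and 4791 in Gli1-PtgscKO. On the log2 scale this was the widest spread within Ctrl among the 10 genes, and the log2 fold change was -0.11 (SE 0.49, 95% interval -1.28 to 1.06).

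Gata4, the factor of the proximal bowel, was at 3090 and 3617 in Ctrl crypts and 2549 and 3937 in Gli1-PtgscKO crypts. Gata6, which is expressed along the whole small intestine, was at 2727 and 2966 in Ctrl and 2446 and 3141 in Gli1-PtgscKO. In both genes the Gli1-PtgscKO libraries enclosed the Ctrl libraries. The log2 fold change was -0.08 for Gata4 (SE 0.29, 95% interval -0.77 to 0.62) and -0.04 for Gata6 (SE 0.25, 95% interval -0.63 to 0.56).

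Pdx1 was the only one of the 10 whose groups did not overlap in crypts. It was at 248.3 and 261.1 normalized counts in Ctrl (265 and 290 reads) and at 329.4 and 403.4 in Gli1-PtgscKO (314 and 361 reads). Both Gli1-PtgscKO values were higher, by 1.43-fold on average, but the log2 fold change of 0.52 (SE 0.30, 95% interval -0.21 to 1.24) had a limma adjusted p of 1.00. Among all genes, 9.73% had both Gli1-PtgscKO libraries above both Ctrl libraries and 11.3% had both below, so 1 of 10 above and 0 of 10 below is near the background. Without Gli1-PtgscKO library 1 the value was 0.66 (SE 0.27), still short of the call.

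Onecut2, a duodenal factor, was at 1351 and 1436 in Ctrl crypts and at 561.3 and 1668 in Gli1-PtgscKO crypts. One Gli1-PtgscKO library was far below both Ctrl libraries and the other above both, which gave a log2 fold change of -0.52 (SE 0.49, 95% interval -1.69 to 0.64). Without Gli1-PtgscKO library 2 the log2 fold change was -1.31, and without library 1 it turned to 0.26, each from a single Gli1-PtgscKO library. Klf5 was the steadiest, at 10732 and 10756 in Ctrl and 10741 and 10445 in Gli1-PtgscKO (log2 fold change -0.02, SE 0.26, 95% interval -0.64 to 0.60). Isx was at 2540 and 2242 in Ctrl and 2146 and 2472 in Gli1-PtgscKO, with groups that overlapped (log2 fold change -0.05, SE 0.24, 95% interval -0.62 to 0.52).

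**Figure D2:**
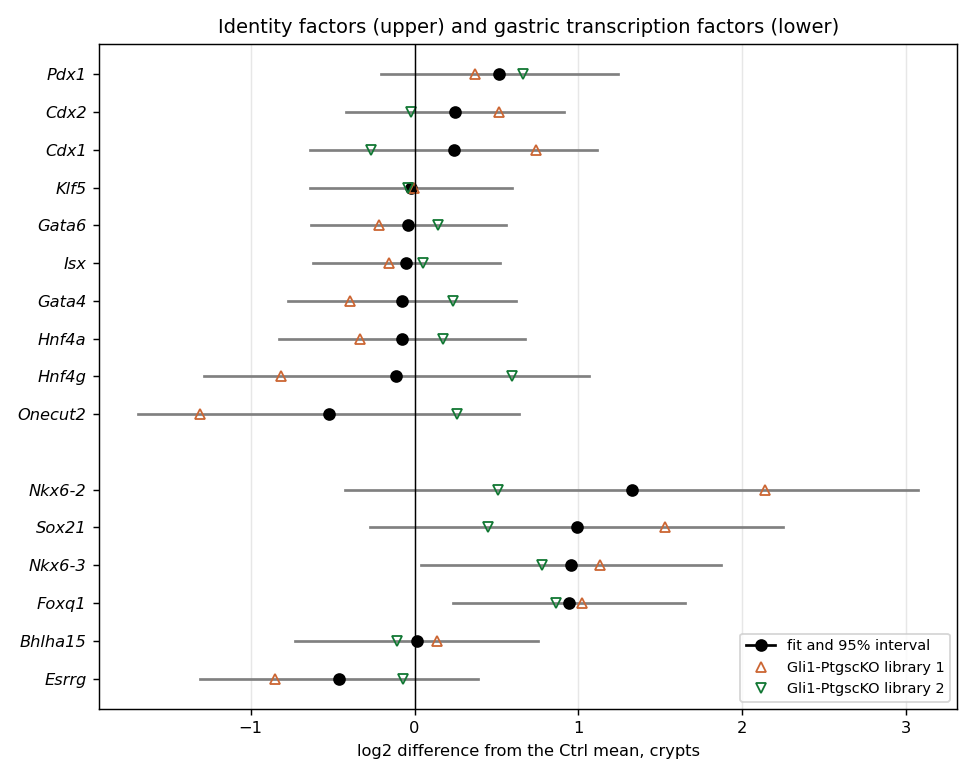
Log2 difference from the Ctrl mean in crypts for the 10 identity factors (upper) and 6 gastric transcription factors (lower). Black points and bars are the limma-trend log2 fold change with its 95% interval, and open triangles are the Gli1-PtgscKO libraries one by one. Every interval of the upper genes crosses 0, and Pdx1 has the highest point of them at 0.52.

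The spread of the 10 factors in crypts came mostly from the Gli1-PtgscKO libraries differing from each other. For 8 of 10 genes these libraries lay on opposite sides of the Ctrl mean, all but Pdx1 and Klf5. Library 1 was above both Ctrl libraries for 3 genes and below both for 6, while library 2 was above both for 6 and below both for 2. The median absolute log2 difference between the Gli1-PtgscKO libraries was 0.52 over the factors and 0.50 over all genes, against 0.12 and 0.19 between the Ctrl libraries.

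The levels in single libraries moved with transcript length. Across all 11552 crypt genes with an annotated length, each library was set against the mean of the other 3 crypt libraries. By this measure Gli1-PtgscKO library 1 fell with length (Spearman's rho across genes -0.67), while Gli1-PtgscKO library 2 (0.57) and the Ctrl libraries (0.24 and 0.45) rose. The reference of the rising libraries includes library 1, so the positive values are not shown to be trends of their own. Genes are not independent replicates, and these values are descriptions. Over the 10 factors rho was -0.75 in Gli1-PtgscKO library 1 and 0.48 in library 2. Onecut2, with a longest transcript of 16234 bases, differed from the Ctrl mean by -1.31 on the log2 scale in library 1, and Cdx1, with 1750 bases, by 0.74. After each library's trend with length was subtracted, these differences were -0.41 for Onecut2 and 0.27 for Cdx1. The correction did not shrink every difference, since Hnf4g, with 2327 bases, went from -0.81 to -1.08 in library 1, and Isx, with 1793 bases, from -0.15 to -0.61. For Pdx1 the correction lowered the difference of library 1 from 0.37 to 0.05 and moved that of library 2 from 0.66 to 0.74. Over the 10 factors the median absolute difference between the Gli1-PtgscKO libraries was 0.52 after the correction, as large as before it. The part of RNA quality or library preparation in these trends was not tested.

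**Figure D3:**
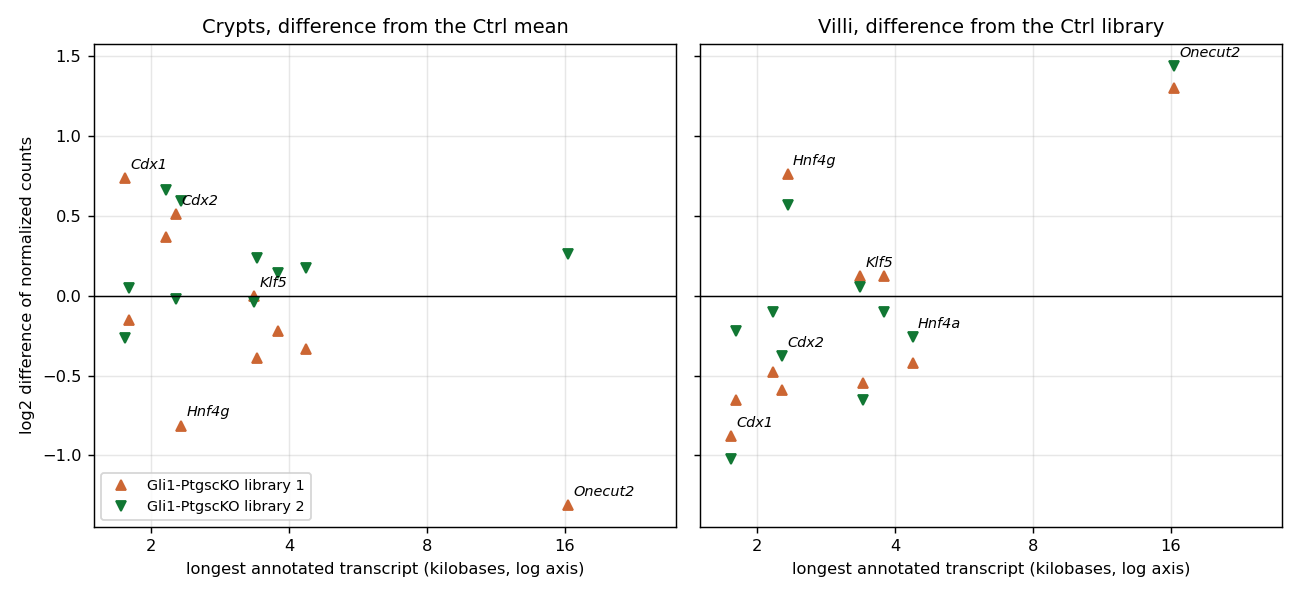
Log2 difference of each Gli1-PtgscKO library from Ctrl for the 10 factors against the longest annotated transcript in kilobases (log axis), in crypts (left, from the mean of 2 Ctrl libraries) and villi (right, from the single Ctrl library). In crypts library 1 (orange) puts Cdx1 at 0.74 and Onecut2 at -1.31 and library 2 (green) puts Onecut2 at 0.26, whereas in villi both libraries put Cdx1 lowest and Onecut2 highest.

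In villi both Gli1-PtgscKO libraries lay on the same side of the Ctrl library for every factor but Gata6, though both ratios share that 1 library. Relative to the size factors, 3 of 10 genes were above the Ctrl library in both Gli1-PtgscKO libraries, 6 of 10 below in both, and Gata6 lay on both sides. After the length correction 1 gene was above in both (Hnf4g), 5 were below in both (Cdx1, Cdx2, Hnf4a, Gata4 and Gata6), and 4 lay on both sides. Over all 12701 genes 43.7% were above in both and 44.2% below in both, and 22.8% were on one side with a mean log2 ratio over 1 in size, against 1 of 10 factors. The median log2 ratio of the factors was -0.31 beside -0.01 over all genes, and the median absolute ratio was 0.46 beside 0.56. No test was run in villi, where Ctrl is a single library. Both Gli1-PtgscKO libraries also rose with transcript length against Ctrl, with a Spearman's rho across all genes of 0.54 and 0.51 and over the 10 factors of 0.73 and 0.39. Scaling by library size alone shifts the median of all villus genes to 0.42 and turns Hnf4a (0.09) and Pdx1 (0.14) to the other direction, so the villus ratios are to be read against the median gene.

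Onecut2 had 214.3 normalized counts in Ctrl villi and 529.8 and 583.4 in Gli1-PtgscKO villi. The mean log2 ratio was 1.37, the largest of the 10, but it was 0.03 after the length correction. Hnf4g was at 2331 in Ctrl and 3957 and 3457 in Gli1-PtgscKO, a ratio of 0.67 that stood at 0.87 after the correction. Klf5 was above by little, at 2617 in Ctrl and 2856 and 2714 in Gli1-PtgscKO (log2 ratio 0.09).

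Cdx1 was at 2729 in Ctrl villi and 1487 and 1343 in Gli1-PtgscKO villi, 0.518 of the Ctrl level on average. Its log2 ratio was -0.95, and -0.56 after the length correction. Gata4 was at 3267 in Ctrl and 2237 and 2079 in Gli1-PtgscKO, with a log2 ratio of -0.60 that hardly moved with the correction (-0.68). Hnf4a was at 10219 in Ctrl and 7646 and 8544 in Gli1-PtgscKO (log2 ratio -0.34, corrected -0.62).

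Cdx2 was at 3740 in Ctrl villi and 2486 and 2876 in Gli1-PtgscKO villi (log2 ratio -0.48, corrected -0.26). Isx was at 1812 in Ctrl and 1151 and 1555 in Gli1-PtgscKO (log2 ratio -0.44, corrected -0.06). Pdx1 was at 252.5 in Ctrl and 181.2 and 235.7 in Gli1-PtgscKO, with 218, 237 and 244 reads. Its log2 ratio of -0.29 was -0.03 after the correction, so the direction seen in crypts was not seen in villi. Gata6 was at 1402 in Ctrl and 1525 and 1304 in Gli1-PtgscKO. Markers of other cells moved in these libraries as well. Of 11 immune markers 8 were below Ctrl in both Gli1-PtgscKO villus libraries, beside 44.2% of all villus genes. The summed level of the 11 was 24508 in Ctrl against 7245 and 7596, most of it Cd74, Igkc and Lyz2. Ptprc, the pan-leukocyte gene, was above instead (log2 ratio 1.72), while Cd3e and Cd8a, of T cells, stood at -0.01 each. Of 8 epithelial markers 5 were below in both and 2 above, Epcam (0.54) and Cdh1 (0.37), beside 44.2% and 43.7% of all genes. The median of the 8 was -0.54, and -0.06 after the length correction. Of 8 stem cell markers 6 were above in both, beside 43.7% of all genes, and the list's median was 0.69 (0.47 corrected). Slc12a2 (1.63), Lgr5 (1.61) and Olfm4 (0.62) were among the 6, Lgr5 from only 13.9 normalized counts in Ctrl. Smoc2 was below in both (-0.52), and Ascl2 lay on both sides (-0.20). The part of cell composition in the villus ratios was not tested.

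Ratios between related factors within a library do not depend on the scaling. Per kilobase of longest transcript, Hnf4a stood over Hnf4g by 3.33 and 2.25 in Ctrl crypts and 3.83 and 2.05 in Gli1-PtgscKO crypts. The crypt groups overlapped, with a mean log2 difference of 0.03 and an exact two-sided permutation p of 1, and 2 libraries against 2 cannot reach the threshold in such a test. In villi the ratio was 2.34 in Ctrl and 1.03 and 1.32 in Gli1-PtgscKO, so the paralogs were close to equal there. That log2 change was -1.005, and -1.49 after the length correction.

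Cdx2 over Cdx1 was 0.579 and 0.567 in Ctrl crypts and 0.489 and 0.679 in Gli1-PtgscKO crypts (log2 difference 0.01, exact permutation p = 1). In villi it was 1.06 in Ctrl and 1.29 and 1.66 in Gli1-PtgscKO, a log2 change of 0.47 (0.30 after the length correction). Gata4 over Gata6 was 1.26 and 1.36 in Ctrl crypts and 1.16 and 1.39 in Gli1-PtgscKO crypts (log2 difference -0.04, exact permutation p = 1). In villi that ratio was 2.59 in Ctrl and 1.63 and 1.77 in Gli1-PtgscKO, a log2 change of -0.61 (-0.52 after the length correction). The HNF4 and GATA ratios thus were lower, and the CDX ratio higher, in both Gli1-PtgscKO villus libraries than in the single Ctrl library.

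**Figure D4:**
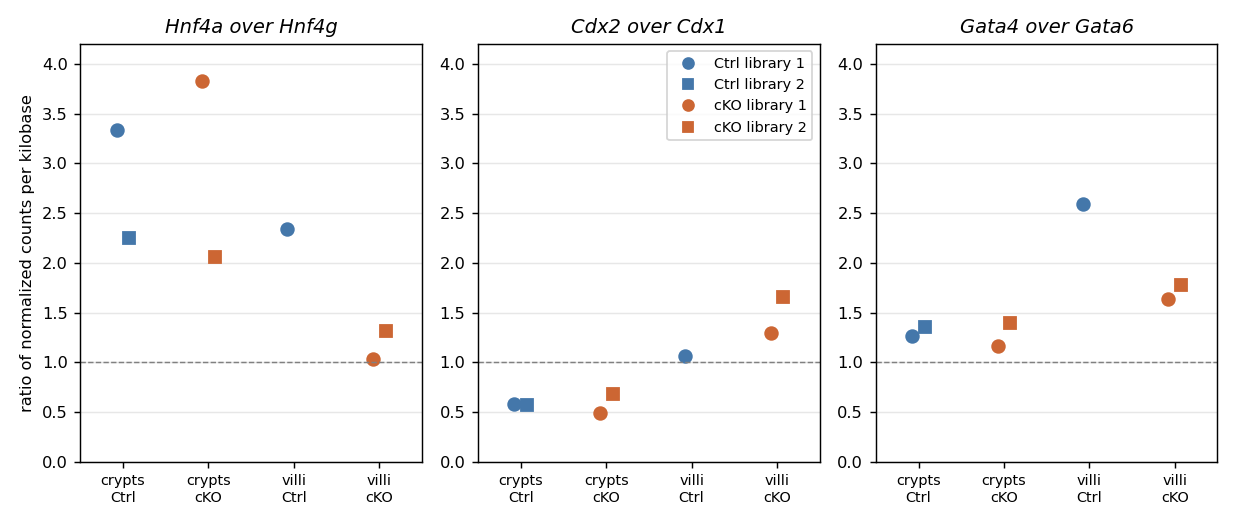
Ratio of paired factors per kilobase of transcript in each library, blue for Ctrl and orange for Gli1-PtgscKO (cKO), with a dashed line at equal levels. The crypt groups overlap in all 3 pairs, and in villi Hnf4a over Hnf4g goes from 2.34 to 1.03 and 1.32.

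Levels were put in order per kilobase as a share of the counts (CPM) over the 11227 genes listed in both tissues. In Ctrl crypts Hnf4a (190.5 and 211.5), Cdx1 (194.9 and 204.3) and Klf5 (174.8 and 169.0) led, and the first pair did not differ beyond the spread between libraries. Cdx2 followed at 112.8 and 115.9, then Hnf4g (57.1 and 93.9) and Isx (77.3 and 65.9), which overlapped. Gata4 (49.6 and 56.0) stood above Gata6 (39.3 and 41.3). Pdx1 (6.28 and 6.37) and Onecut2 (4.54 and 4.66) were lowest, in places 9 and 10 of every library of both tissues and genotypes. In Ctrl villi Hnf4a led at 139.1, ahead of Cdx2 at 98.2 and Cdx1 at 92.6, and Klf5 had dropped to place 7 at 46.4.

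Between tissues, Cdx1, Cdx2 and Klf5 did not overlap, with every crypt library above every villus library, and no factor had every crypt library below. Over all 11227 shared genes 52.3% had every crypt library above and 11.1% every crypt library below, so 3 of 10 above is a smaller share than the background. In CPM, crypts over villi gave 2.16 for Cdx1, 3.71 for Klf5 and 1.16 for Cdx2 in Ctrl, and 3.61, 2.42 and 1.37 in the same order in Gli1-PtgscKO. Onecut2 was 5.87 times as high in Ctrl crypts as in Ctrl villi and 1.30 times in Gli1-PtgscKO, where crypt library 1 alone gave 0.615 and library 2 alone 1.99 of the villus mean. For Hnf4g the ratio was 1.27 in Ctrl and 0.576 in Gli1-PtgscKO, with 0.296 and 0.855 from the crypt libraries one by one. Because mt-Co1 alone took 13.5% of the Ctrl villus reads and 2.98% and 3.91% of those in Ctrl crypts, shares of counts between the tissues carry that difference as well. No test between tissues was run.

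Transcription factors of the stomach were set beside the 10 intestinal factors in crypts, and none was called. Of 8 such genes on the list 6 were measured, Sox2 and Barx1 not being listed. Of these, 4 of 6 had both Gli1-PtgscKO libraries above both Ctrl libraries (background 9.73%). The 4 include Nkx6-2, which was listed only through a high Gli1-PtgscKO value and does not count as support. Nor is the rest of the list independent evidence, because it was chosen with earlier results of these data known. Foxq1, a regulator of gastric mucin, was at 224.9 and 271.0 in Ctrl and 502.5 and 449.2 in Gli1-PtgscKO (log2 fold change 0.94, SE 0.30, limma adjusted p = 1.00). Nkx6-3, a factor of the gastric antrum, was at 105.9 and 97.2 in Ctrl and 223.5 and 174.3 in Gli1-PtgscKO (log2 fold change 0.95, SE 0.38, limma adjusted p = 1.00). Both were among the 73 genes with an unadjusted p under 0.05, and they were the more even differences, at 0.86 and 0.77 from Gli1-PtgscKO library 2 alone. Foxq1 alone of the list would be called after the length correction, at 1.03, where 25 of 11552 genes were called. Without Gli1-PtgscKO library 2 its log2 fold change was 1.02, from a single Gli1-PtgscKO library.

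Sox21 was at 104.0 and 63.9 in Ctrl and 237.1 and 111.7 in Gli1-PtgscKO (log2 fold change 0.99, limma adjusted p = 1.00). Nkx6-2 was at 29.0 and 27.0 in Ctrl and 126.9 and 40.2 in Gli1-PtgscKO (log2 fold change 1.32, limma adjusted p = 1.00). Both rested more on Gli1-PtgscKO library 1, and from library 2 alone they were 0.45 and 0.51. Every listed crypt gene had a mean of at least 48.4 normalized counts, which Nkx6-2 reached only through Gli1-PtgscKO library 1. Its higher level in Gli1-PtgscKO is therefore partly given by its being listed. The other members were Bhlha15 at 0.01 and Esrrg at -0.46. The median of the list, with Nkx6-2 in it, was 0.95 beside -0.04 for the intestinal factors and -0.01 for all genes. In villi Foxq1 had a log2 ratio of 0.31 (-0.07 after the length correction) and Nkx6-3 of -0.39 (-0.16 corrected). Esrrg had 1.49 (1.01 corrected) and Bhlha15 0.56 (0.46 corrected), from only 9.27 and 12.7 normalized counts in Ctrl. Sox21 and Nkx6-2 were not listed there. The 7 gastric genes that the study picked on these libraries had a median of 1.67 with 6 called, which is not independent evidence of their direction. They were already expressed in Ctrl crypts, with a summed level of 25196 and 32571, against 109668 and 65589 in Gli1-PtgscKO crypts. The sample titles name the small intestine without a segment, and the part of regional sampling in these differences was not tested.

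Of 20 other endoderm and intestinal factors, 0 were called in crypts and the median log2 fold change was 0.03. Foxa3, Klf4, Sox9 and Creb3l3 had both Gli1-PtgscKO libraries above both Ctrl libraries, as did 9.73% of all genes. Ehf, an epithelial ETS factor, was among those with both below, as were 11.3% of all genes. Creb3l3, a regulator of lipid genes, was largest among the higher ones at 0.48, and Ehf was at -0.31. All 4 listed Hox genes overlapped between genotypes, with a median of 0.23.

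Known target genes of the factors were read from lists. Of 5 CDX2 targets 1 was called lower in crypts, Muc2 at -1.13 (limma adjusted p = 1.00), the gene of the goblet cell mucin, and the median was -0.25. It was the 1 gene of all 11554 called lower, and the study itself names it as lower on these libraries, so it is not independent evidence of direction. Muc2 was at 19796 and 15809 in Ctrl crypts and 8235 and 7934 in Gli1-PtgscKO crypts, and in villi the Gli1-PtgscKO libraries lay on both sides of Ctrl. Of 10 HNF4 targets 0 were called and the median was 0.18, which was -0.10 after the length correction, and of 5 genes activated by GATA4 0 were called with a median of -0.05. In villi the HNF4 targets had a median log2 ratio of -0.41, which was -0.02 after the length correction. Fabp6 and Slc10a2, ileal bile acid genes that GATA4 represses, had crypt values of 0.33 and -0.54 with overlap and villus log2 ratios of -1.76 and -0.68. After the length correction Fabp6 was at -0.27 in crypts and -0.55 in villi, and Slc10a2 at -0.50 and -0.91. Scarb1, a target that ISX represses, was at -0.17 in crypts and -0.57 in villi.

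Regional genes were read in the same way. Of 5 measured duodenal genes 1 was called, beside 0.182% of all genes. It was S100g, a calcium-binding protein, at 424 and 488 in Ctrl crypts and 869 and 958 in Gli1-PtgscKO crypts (log2 fold change 1.00, SE 0.26, limma adjusted p = 1.00). The list's median of 0.50 was 0.06 after the length correction, and S100g itself went to 0.41. Of 6 measured ileal genes 0 were called, and the median of 0.10 was -0.17 after the length correction. In villi 6 of 8 ileal genes were below Ctrl in both Gli1-PtgscKO libraries, beside 44.2% of all villus genes. Nts (0.29) and Fgf15 (0.44) were above in both. The median log2 ratio of the 8 was -0.73, and -0.32 after the correction. Of 6 duodenal genes in villi 3 were above in both, beside 43.7% of all villus genes, and 2 below in both. Their median was 0.06, and 0.45 after the correction. S100g lay on both sides there, at 6018 in Ctrl and 2827 and 8406 in Gli1-PtgscKO. Stem cell markers had a median of -0.10 and enterocyte markers of -0.04 in crypts, with 0 called in either list.

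Pancreatic tissue also expresses Pdx1, and 5 of 11 pancreas markers were listed in crypts. Their median was 0.67 (0.43 after the length correction), and 0 were called. Their summed level was 4687 and 3879 in Ctrl crypts and 8165 and 4304 in Gli1-PtgscKO crypts. Most of it was Clps, at 3203 and 2486 in Ctrl and 5644 and 2547 in Gli1-PtgscKO. The sum thus mainly follows that gene and is not shown to measure pancreatic tissue. Cela1 and Ctrb1, of the acinar cell, had both Gli1-PtgscKO libraries above both Ctrl libraries, as did 9.73% of all genes. The log2 fold changes were 1.40 and 0.84, and 1.06 and 0.44 after the length correction. Pnlip, Clps and Gcg overlapped between genotypes. The other 6, Prss2, Cpa1, Cel, Amy2a5, Ins2 and Ptf1a, were not listed in crypts. Their part in the Pdx1 difference was not tested.

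Genes of like pattern were sought over the 7 libraries among 10258 genes by the mean absolute difference of centred log2 CPM. The nearest to Cdx2 were Gimap1 and Fam83f (0.0457 and 0.0508), and the nearest to Pdx1 were Mmp28 and Map3k14 (0.0950 and 0.110). Hnf4g had the least close ones, Fyn and Gm11437 (0.121 and 0.135), and Klf5 the closest, Rars and Gtf2h2 (0.0338 and 0.0453). Within the 10 factors the closest pair was Hnf4a with Gata6 (0.131), and Onecut2 was farthest from any other, at 0.507 from Klf5. These are distances between profiles that share libraries and depth, and they carry no test.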

How the data were processed

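Small intestinal crypts and villi of Ctrl and Gli1-PtgscKO mice were profiled by RNA-seq. The authors aligned reads to mm10 with STAR and used DESeq2. The deposited signal is read counts per gene scaled by DESeq2 size factors, separately for each tissue. Counting program, strand setting and annotation were not given in the sources used here, so overlapping and antisense genes are uncertain. The tables also hold the authors' fold changes and p-values, which were not used. Kit names differ between the labels and the methods.

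Whole reads were recovered for 100% of values (tolerance 0.01 reads). The 4 crypt libraries were compared without a block by limma-trend, from limma 3.58.1 under R 4.3.3, after taking log2(value + 1). A minimum mean of 1 was passed by all listed genes. The scripts were tested on simulated data. edgeR 4.0.16 and DESeq2 1.42.0 on recovered reads were alternatives, with a replicate block, library size scaling, read filters, a pseudocount of 0.1, a length correction (lowess, span 0.3, GENCODE M21) and leaving out each library. Members and gene lists were chosen with earlier results of these data known. Named genes were all 10 members, Ptgs1 and Ptgs2, up to 4 genes a list with the largest fold change among those without overlap (others named were chosen after their values were seen), and the 2 genes of most like pattern. Figures were drawn with matplotlib 3.10.9. Some genes of the lists are not reported by name here.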

Additional observations from a re-analysis of the deposited data

Results flagged for a closer look

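Pdx1 stood on opposite sides of Ctrl in the tissues. In crypts both Gli1-PtgscKO libraries were above both Ctrl libraries (log2 fold change 0.52), whereas in villi both were below the single Ctrl library, with a mean log2 ratio of -0.29. After the length correction the villus ratio was -0.03, with the Gli1-PtgscKO libraries on both sides of Ctrl (-0.20 and 0.13). With library size scaling it was 0.14, and -0.28 against the median of all villus genes under that scaling. The difference between tissues was not tested.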

How the results depend on the processing

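The identity factors called in crypts stayed at 0 of 10 under all alternatives except without Gli1-PtgscKO library 2, so leaving out a library gave 0 to 1. Same-numbered crypt libraries had deviations correlated at 0.247, but with 2 pairs the numbers are not shown to pair animals. With the replicate block 78 crypt genes were called (63 higher, 15 lower) and 34 had an adjusted p under 0.05, against 21 and 0 without it, and 33 were called with the block and the length correction together. The block changed no call of the 10 factors. DESeq2 called 65 genes (60 higher, 5 lower) with 11 by adjusted p. Leaving out each library gave 18 to 881 calls and 0 to 1987 by adjusted p, the highest without Gli1-PtgscKO library 2, and 4 without Ctrl library 2. In these fits a lone library is assumed to vary like the other group.

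Leaving out each library moved the crypt median of the factors between -0.19 and 0.16, and it was 0.14 with the length correction and without Gli1-PtgscKO library 1, a setting chosen after seeing the data. Pdx1 (0.37 to 0.74) and Klf5 (-0.09 to -0.00) kept their direction in all 14 alternatives. Hnf4g turned to 0.012 by DESeq2 and 0.014 by edgeR. Without Ctrl library 1, Isx was 0.04. Without Ctrl library 2, Hnf4a was 0.02, Hnf4g 0.27, Gata4 0.04 and Gata6 0.02. Without Gli1-PtgscKO library 1, Cdx1 was -0.27, Cdx2 -0.020, Hnf4a 0.18, Hnf4g 0.59, Gata4 0.24, Gata6 0.14, Onecut2 0.26 and Isx 0.051. Without library 2 instead, these 8 genes were at 0.74, 0.51, -0.33, -0.81, -0.39, -0.22, -1.31 and -0.15 in the same order. With the length correction and without library 1, Cdx1 was -0.17, Hnf4a 0.13, Hnf4g 0.66, Gata4 0.25, Gata6 0.13, Onecut2 0.20 and Isx 0.14. The causes were not tested.

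In villi the count over 1 on the log2 scale was 2 with library size alone, 0 with the length correction and 1 to 2 on leaving out a Gli1-PtgscKO library. The median log2 ratio was 0.12 with library size alone and -0.11 with the length correction. In crypts, with 2 libraries a group, a factor needed an absolute log2 fold change from 0.85 (Isx) to 1.74 (Hnf4g) to reach the p threshold.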
